A study of Mus musculus with 20 samples.

Results

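The genes examined here encode 10 transporters that carry bile acids, bilirubin conjugates, phospholipid and sterols into and out of hepatocytes. They were taken by name from the deposited gene tables: Slc10a1, Slco1a1, Slco1a4 and Slco1b2 for uptake from blood, Abcb11, Abcb4 and Abcc2 for export into bile, Abcg5 and Abcg8 for sterol export into bile, and Abcc3 for export back to blood. All 10 symbols were found once in each table, and all 10 passed the minimum of at least 5 reads in at least 5 libraries of any table, which left 15578 of 37681 genes for testing. The question was how their transcripts in liver differed between IL-1β treated and untreated mice. The mice were C57/B6J males aged 12 weeks with no genetic alteration named in the labels. Of these, 5 received IL-1β, a cytokine that starts inflammatory signaling, at 20 µg/kg by intraperitoneal injection (mice ILB_9577, ILB_9578, ILB_9579, ILB_9582 and ILB_9583). The other 5 received saline and are called untreated (mice UNT_9574, UNT_9575, UNT_9576, UNT_9580 and UNT_9584). Whole liver was sampled 4 hours after injection, at this single time and dose. RNA of every liver was made into 1 Illumina and 1 Ion Torrent library, and the reads of both platforms were aligned with GSNAP, STAR or STAR + Bowtie2, which gave 6 tables of 10 libraries. Values are from the Illumina libraries aligned with STAR unless another table is named.

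Hepatocytes take bile acids from sinusoidal blood, mostly through the sodium-dependent transporter Slc10a1, and take bilirubin and other organic anions through the sodium-independent Slco family. At the opposite, canalicular face, ATP-driven pumps of the ABC family drive bile formation: Abcb11 moves bile salts, Abcb4 flips phosphatidylcholine into the outer leaflet, Abcc2 exports bilirubin glucuronides and glutathione conjugates, and Abcg5 pairs with Abcg8 to export cholesterol and plant sterols. Abcc3 lies on the sinusoidal side and returns conjugated bilirubin and bile acids to blood. Inflammation of the liver is a known setting of cholestasis, in which bile flow is impaired.

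Total counts lay between 10568530 and 12008799 for Illumina libraries and between 12199528 and 16439683 for Ion Torrent libraries. Counting error is small for these genes: the lowest count of any of them in a library of the STAR Illumina table was 153, for Abcg8 in treated mouse ILB_9578. The treatment labels were checked with 5 genes of the IL-1 response (Saa1, Saa2, Lcn2, Il1rn and Socs3), and 5 of 5 rose. Their summed level was 19310 to 24616 in normalised CPM (counts scaled by the TMM library size) in treated and 67.7 to 144 in untreated mice. Of 7 hepatocyte markers, 3 fell, 1 rose and 3 did not pass the test, and their summed level was 69817 to 84126 in treated and 90397 to 112156 in untreated mice. Alb, the highest of them, fell by 0.53 on the log2 scale (adjusted p = 0.00267 from edgeR). Fewer cells of a type and less RNA per cell cannot be told apart in RNA of whole liver. Mouse UNT_9584 stood apart. The deviations of its Illumina and Ion Torrent libraries from the untreated mean correlated across genes at 0.199 to 0.248. The other 9 mice had 0.547 to 0.721, each against the mean of its own group. The paper reports a lower correlation between platforms for this mouse, and a shift in the read lengths of its Ion Torrent library. Which of its libraries differed was not tested. Results that moved without this mouse are given with it and without it.

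Every one of the 10 transporters fell with IL-1β in the STAR Illumina table (10 of 10 lower and 0 higher, edgeR quasi-likelihood test, adjusted p below 0.05). Of all 15578 genes tested, 22.9% were called lower and 22.7% higher by the same test. The median log2 fold change was -0.94 over the 10 transporters and 0 over all genes tested. With a further requirement of a log2 fold change below -1, 4 of the 10 were called (Slc10a1, Slco1a4, Abcc2 and Abcg8), against 8.88% of all genes. All 5 treated mice lay below all 5 untreated mice for 9 of the 10, against 16.2% of all genes, and the exception was Abcb11. Without mouse UNT_9584, 10 of 10 were again called lower.

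**Figure D1:**
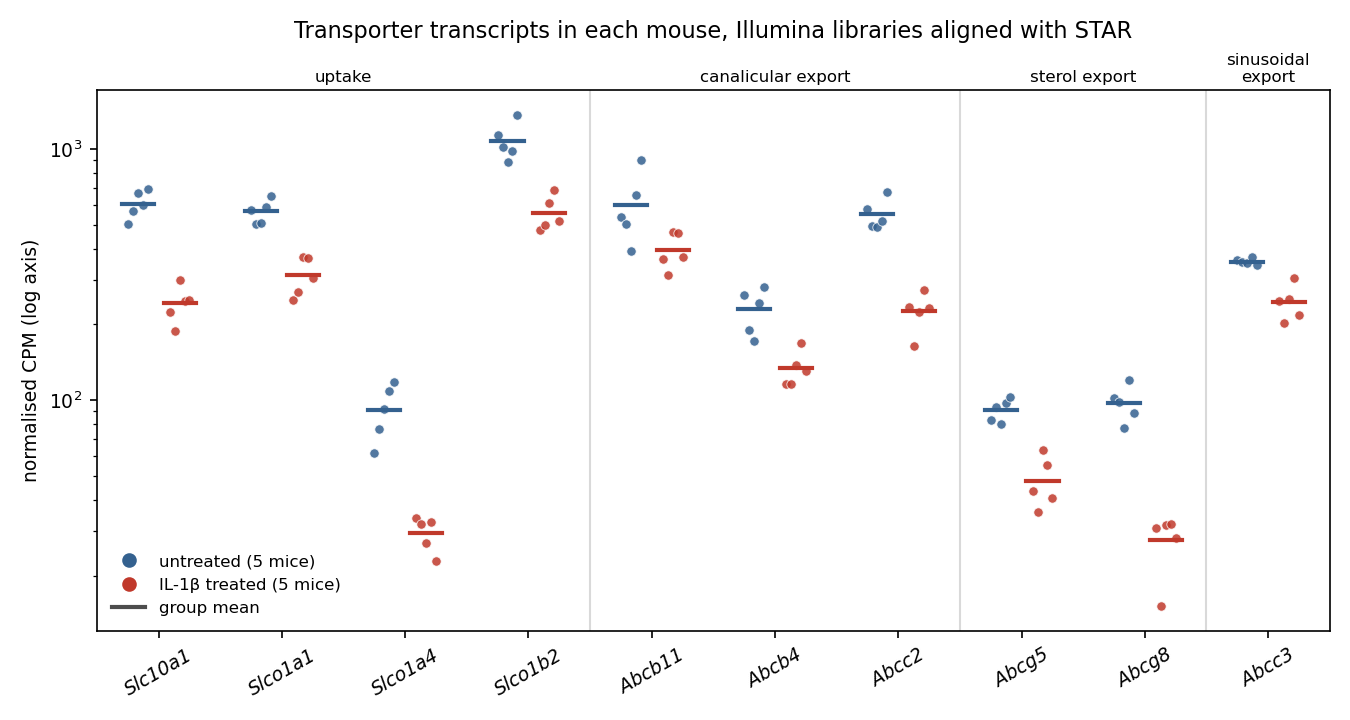
Normalised CPM (log axis) of the 10 transporters in each Illumina library aligned with STAR, grouped by role. Each point is 1 mouse (5 untreated in blue, 5 IL-1β treated in red) and each bar is the group mean. The 2 groups are apart for every gene except Abcb11, and the lowest point is treated mouse ILB_9578 for Abcg8 at 15.1.

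Among the uptake transporters, Slc10a1 (ENSMUSG00000021135, chr12:82054172-82068971 on mm9, reverse strand), the sodium-dependent bile acid carrier, had 225, 189, 299, 249 and 250.3 normalised CPM in treated mice ILB_9577, ILB_9578, ILB_9579, ILB_9582 and ILB_9583. The untreated mice UNT_9574, UNT_9575, UNT_9576, UNT_9580 and UNT_9584 had 504, 564, 667, 598 and 694, so that the highest treated mouse was below the lowest untreated one. The log2 fold change was -1.32 (SE 0.13, adjusted p = 1.11e-06 from edgeR), which left 40.1% of the untreated level. Slco1b2 (ENSMUSG00000030236, chr6:141578039-141635167, forward strand), the liver-restricted carrier of bilirubin and unconjugated bile acids, had the most reads of the 10. Its values in the same order of mice were 476, 498, 607, 688 and 518 with treatment and 1134, 1021, 889, 977 and 1366 without. The groups did not overlap, and the log2 fold change was -0.95 (SE 0.14, adjusted p = 4.30e-05 from edgeR).

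Slco1a1 and Slco1a4 are organic anion carriers whose genes lie beside Slco1b2 on chromosome 6. Slco1a1 (ENSMUSG00000041698, chr6:141855803-141895483, reverse strand) had 251, 269.7, 372, 369 and 308 in the treated and 572, 503, 509, 587 and 648 in the untreated mice, with a log2 fold change of -0.84 (SE 0.13, adjusted p = 6.61e-05 from edgeR). Slco1a4 (ENSMUSG00000030237, chr6:141753961-141804720, reverse strand), the least abundant of the 4 uptake genes, had 33.9, 31.9, 26.9, 32.7 and 22.8 against 61.8, 76.9, 92.1, 109 and 118. The log2 fold change was -1.63 (SE 0.17, adjusted p = 1.98e-06 from edgeR), which left 32.4% of the untreated level. Both genes were apart between the groups in all 6 tables. The coding sequence of Slco1a5 matches those of Slco1a1 and Slco1a4 at 87.8% and 89.2% of aligned bases, so that reads can be shared between these paralogs. Slco1a5 and Slco1a6 held 0 reads in all 10 libraries of this table.

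The sequences upstream of the uptake and export genes are shown since all of these genes fell. Whether they share regulation was not tested. Promoter windows of 250 bases before the transcription start were found for 9 of the 10 genes in RefSeq (GRCm38.p6) and not for Abcc3; where a gene had more than 1 start, the window closest to the annotated start was used. AGGTCA, the half-site bound by nuclear receptors of the bile acid and lipid sensing class, was searched on both strands and occurred for 5 genes (Slc10a1, Slco1a1, Slco1b2, Abcb11 and Abcc2), and in 14% of all 32851 windows of this length. GTTAAT, a half-site of the hepatocyte factor HNF1, occurred for 1 gene (Slco1b2) and in 6.43% of all windows. AGATAA, bound by GATA factors, occurred for Abcg5 and in 9.99% of all windows. For Abcg8 it was absent from the window used and present in the window of its other RefSeq start. TGANTCA, bound by AP-1, occurred for 0 of the 9 genes and in 6.75% of all windows. GGGACTTT, the first 8 letters of a common NF-kB motif, occurred for 1 gene (Slco1b2) and in 1.21% of all windows. None of the matches overlapped another, and a match describes the letters only. In the windows below, written 5′ to 3′ on the strand of the gene, capitals mark every match to these motifs on either strand. The first is chr12:80968080-80968329 (reverse strand) on GRCm38.p6, which lies at chr12:82069067-82069316 on mm9, 95 bases before the annotated start of Slc10a1. The second is chr6:141629268-141629517 (forward strand), or chr6:141577789-141578038 on mm9, and ends at the start of Slco1b2.
Slc10a1: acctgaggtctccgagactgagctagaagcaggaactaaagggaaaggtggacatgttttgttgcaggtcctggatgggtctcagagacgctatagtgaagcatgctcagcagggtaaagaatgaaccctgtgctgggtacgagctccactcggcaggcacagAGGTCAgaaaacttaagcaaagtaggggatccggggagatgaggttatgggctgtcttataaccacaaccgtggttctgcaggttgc
Slco1b2: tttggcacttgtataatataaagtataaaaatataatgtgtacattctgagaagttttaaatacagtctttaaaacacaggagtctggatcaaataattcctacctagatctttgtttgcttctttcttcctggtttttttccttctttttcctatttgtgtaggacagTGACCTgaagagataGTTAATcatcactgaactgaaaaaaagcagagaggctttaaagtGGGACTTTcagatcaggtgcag

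On the canalicular side, Abcc2 (ENSMUSG00000025194, chr19:43856682-43912441, forward strand), the exporter of bilirubin glucuronides, had the largest fall of the 3 pumps for bile salts, phospholipid and conjugates. Treated mice had 235, 164, 225, 274 and 233 normalised CPM, and untreated mice 578, 494, 489, 518 and 675. No treated mouse came near the untreated range, and the log2 fold change was -1.29 (SE 0.14, adjusted p = 2.33e-06 from edgeR). Abcb4 (ENSMUSG00000042476, chr5:8893717-8959225, forward strand), the phospholipid flippase, had 115, 116, 138, 168 and 130.3 with treatment and 262, 189, 172, 244 and 281 without. Here the groups nearly touched, at 168 in treated ILB_9582 and 172 in untreated UNT_9576, and the log2 fold change was -0.78 (SE 0.15, adjusted p = 0.000459 from edgeR). The groups of Abcb4 were apart in 3 of the 6 tables in normalised CPM, and in 6 of 6 in the deposited counts. Its closest paralog, Abcb1a, matches it at 77.0% of aligned bases and had a mean count of 34.7.

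Abcb11 (ENSMUSG00000027048, chr2:69076339-69180671, reverse strand), the bile salt export pump, was the transporter with the least separation. Its treated values were 366, 316, 466, 461 and 369.9, and its untreated values 534, 504, 393, 657 and 901. Untreated UNT_9576 lay below treated ILB_9579 and ILB_9582, and 3 of 5 treated mice lay below the lowest untreated one. The log2 fold change was -0.60 (SE 0.19, adjusted p = 0.0167 from edgeR), and without untreated mouse UNT_9584, the highest of all, it was -0.40 (adjusted p = 0.0438 from edgeR). In normalised CPM the groups overlapped in all 6 tables, while in the deposited counts they were apart in 2 of them (Ion Torrent STAR and STAR + Bowtie2). The Mann-Whitney U test on the deposited counts, the test of the study, did not call Abcb11 in this table (adjusted p = 0.0722) and called it in 4 of the 6 tables. Its upstream window, shown because Abcb11 is a textbook target of the bile acid receptor Nr1h4, holds a single exact match to AGGTCA. This match is on the reverse strand of the gene, in capitals. Half-sites that differ from AGGTCA by a letter were not searched, so the window may hold further ones. The window is chr2:69342617-69342866 (reverse strand) on GRCm38.p6, or chr2:69180674-69180923 on mm9, and ends 2 bases before the annotated start.
Abcb11: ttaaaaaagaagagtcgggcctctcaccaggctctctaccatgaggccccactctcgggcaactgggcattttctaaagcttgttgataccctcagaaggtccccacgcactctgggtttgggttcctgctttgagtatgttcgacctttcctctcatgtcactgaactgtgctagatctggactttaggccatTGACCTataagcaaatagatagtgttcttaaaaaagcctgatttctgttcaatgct

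The sterol exporters Abcg5 and Abcg8 form an obligate heterodimer and are transcribed away from each other on chromosome 17. Abcg8 (ENSMUSG00000024254, chr17:85075642-85099673, forward strand) had 30.9, 15.1, 31.9, 32.2 and 28.3 normalised CPM in treated mice. The untreated mice had 102, 98.2, 77.1, 121 and 88.9, and the log2 fold change of -1.81 (SE 0.18, adjusted p = 1.34e-06 from edgeR) was the largest fall of the 10 in this table. Abcg5 (ENSMUSG00000040505, chr17:85057574-85082351, reverse strand) had 43.6, 35.8, 63.3, 55.3 and 40.9 with treatment and 83.1, 93.9, 80.4, 97.6 and 103 without. The groups of Abcg5 were apart, with a log2 fold change of -0.94 (SE 0.14, adjusted p = 7.66e-05 from edgeR). Both genes thus fell, to 28.4% and 52.2% of the untreated level. The annotated exons of the 2 genes share 82 bases on opposite strands, or 2.19% of those of Abcg8 and 2.99% of those of Abcg5, and whether the counting used the strand is not given in the sources used here.

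RefSeq places a start of Abcg8 near the start of Abcg5. The stretch of 109 bases between them is shown because the pair shares it as upstream sequence. It lies at chr17:84683012-84683120 on GRCm38.p6, or chr17:85082352-85082460 on mm9, and is written on the strand of Abcg8. Capitals mark TTATCT, the GATA motif AGATAA read on the opposite strand. The annotation places a further, more distant start of Abcg8 within the Abcg5 gene.
Abcg5-Abcg8: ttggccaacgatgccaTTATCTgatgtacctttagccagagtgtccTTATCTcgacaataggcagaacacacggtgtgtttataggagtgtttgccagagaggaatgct

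Abcc3 (ENSMUSG00000020865, chr11:94204612-94254311, reverse strand), the exporter to blood, fell together with the rest. Its treated values were 248, 202, 252, 306 and 218, and its untreated values 362, 355, 349.7, 371 and 343. The untreated mice lay close together (SD 10.6 around a mean of 356), and each treated mouse was below them. The log2 fold change was -0.54 (SE 0.11, adjusted p = 0.000832 from edgeR), the smallest fall of the 10 in this table. Without mouse UNT_9584 it was -0.55, a larger fall than the -0.40 of Abcb11, and in the Ion Torrent STAR table it was -0.69 against -0.53 for Abcb11.

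Summed by role, the normalised reads of the 4 uptake genes were 1143 ± 170.1 CPM in treated and 2338 ± 278 in untreated mice (mean ± SD, n = 5 each), or 48.9% of the untreated level. The sum of Abcb11, Abcb4 and Abcc2 was 755 ± 117 against 1378 ± 305, or 54.8%. Abcg5 and Abcg8 together had 75.5 ± 17.2 against 189 ± 21.6, or 40.0%. For Abcc3 alone, 68.8% was left. In the Ion Torrent STAR table, these shares were 54.4%, 55.7%, 40.2% and 61.8%. The order of the 4 roles was the same in both tables.

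Levels of different genes were compared per length, as RPKM, in which normalised CPM are divided by the kilobases of annotated exon. In untreated mice, Slc10a1 was highest at 383 ± 48.6 (mean ± SD, n = 5), followed by Slco1b2 at 219 ± 37.3, Abcb11 at 119 ± 38.4, Slco1a1 at 107 ± 11.4 and Abcc2 at 95.9 ± 13.6. Abcc3 had 62.6 ± 1.86, Abcb4 56.0 ± 11.5, Abcg5 33.4 ± 3.46, Abcg8 26.0 ± 4.30 and Slco1a4 23.8 ± 5.96. The ranges over mice overlapped between the neighbours Abcb11 and Slco1a1, Slco1a1 and Abcc2, Abcc3 and Abcb4, Abcg5 and Abcg8, and Abcg8 and Slco1a4, so that the order within these pairs is not larger than their spread. After treatment, Slc10a1 had 154 ± 25.6 and Slco1b2 113 ± 18.0, and their ranges over mice overlapped. Abcc2, at 39.3 ± 6.89, came below Abcc3, at 43.1 ± 6.95, and Abcg8, at 7.38 ± 1.92, below Slco1a4, at 7.70 ± 1.22, with overlapping ranges in both pairs. Dividing by the longest transcript in place of all exons gave 326 for Slco1b2 and 144 for Slco1a1 in untreated mice, which kept Slc10a1 and Slco1b2 as the highest and moved Slco1a1 above Abcb11. In treated mice it turned the order of the first pair, with 168.5 ± 26.8 for Slco1b2 and 154 ± 25.6 for Slc10a1.

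**Figure D2:**
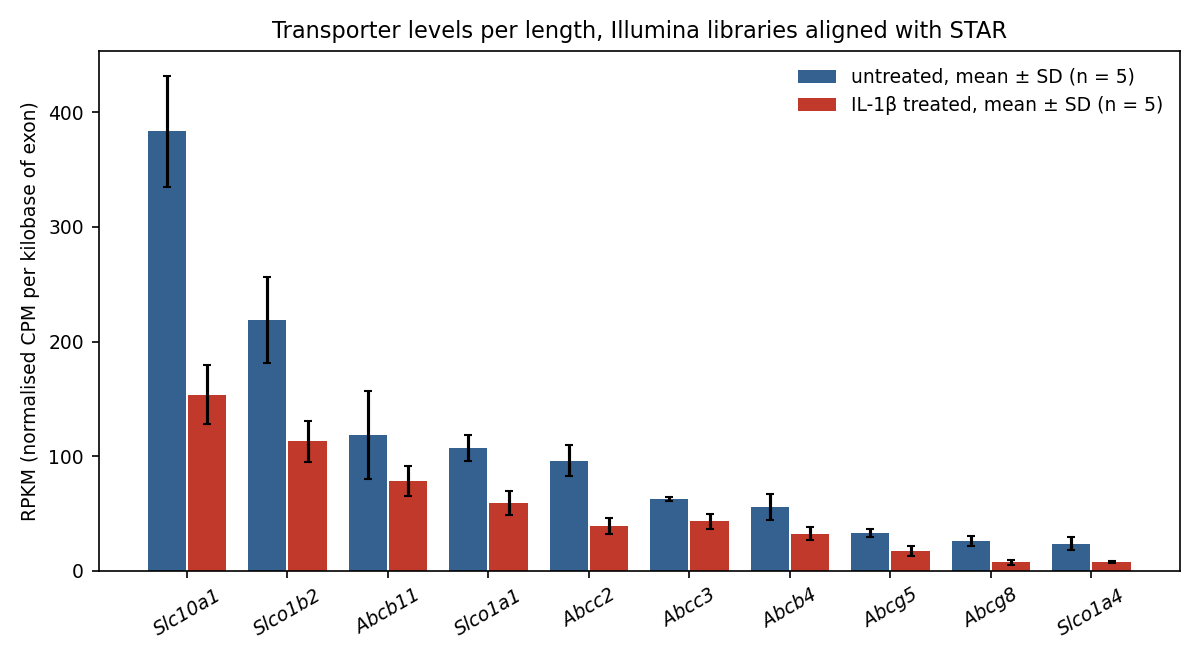
RPKM for the 10 transporters, ordered by the untreated mean, in Illumina libraries aligned with STAR. Bars are means and error bars SDs over 5 untreated (blue) and 5 IL-1β treated (red) mice. Slc10a1 has the highest mean in both groups on this scale, at 383 and 154, and in treated mice its range overlaps that of Slco1b2, which is the higher one per longest transcript.

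Pairs of transporters that work together or are close relatives were compared within each mouse as the log2 ratio of their normalised reads, for 3 pairs. Abcg8 over Abcg5 was -0.50, -1.25, -0.99, -0.78 and -0.53 in treated mice and 0.29, 0.065, -0.060, 0.30 and -0.21 in untreated mice. The groups did not overlap, and the mean ratio differed by -0.89 (exact two-sided permutation test, 5 against 5 mice, p = 0.00794, the smallest that 252 regroupings can give, adjusted p = 0.0238 over the 3 pairs). Abcg8 thus fell further than its partner in the same livers, and the groups were apart in all 6 tables.

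Slco1a4 over Slco1a1 was -2.89, -3.08, -3.79, -3.50 and -3.76 in treated and -3.21, -2.71, -2.47, -2.43 and -2.46 in untreated mice. Untreated mouse UNT_9574 lay among the treated mice, and the difference of -0.75 passed the test (two-sided exact permutation test, p = 0.0238, adjusted p = 0.0357). In the Ion Torrent STAR table it was -0.69 (exact permutation p = 0.0397, adjusted p = 0.0595). When 1 mouse was left out, the difference was -0.89 to -0.65 and passed in 4 of 10 cases (adjusted exact permutation p 0.0238 to 0.0714). It did not pass without ILB_9579, ILB_9582, ILB_9583, UNT_9575, UNT_9576 or UNT_9580. Abcb4 over Abcb11 was -1.57 ± 0.14 in treated and -1.35 ± 0.25 in untreated mice (SD, n = 5), and the difference of -0.22 did not pass (two-sided exact permutation test, p = 0.0952). Without untreated mouse UNT_9584 it was -0.30 (exact permutation p = 0.00794, the smallest that 5 against 4 mice can give, adjusted p = 0.0119).

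**Figure D3:**
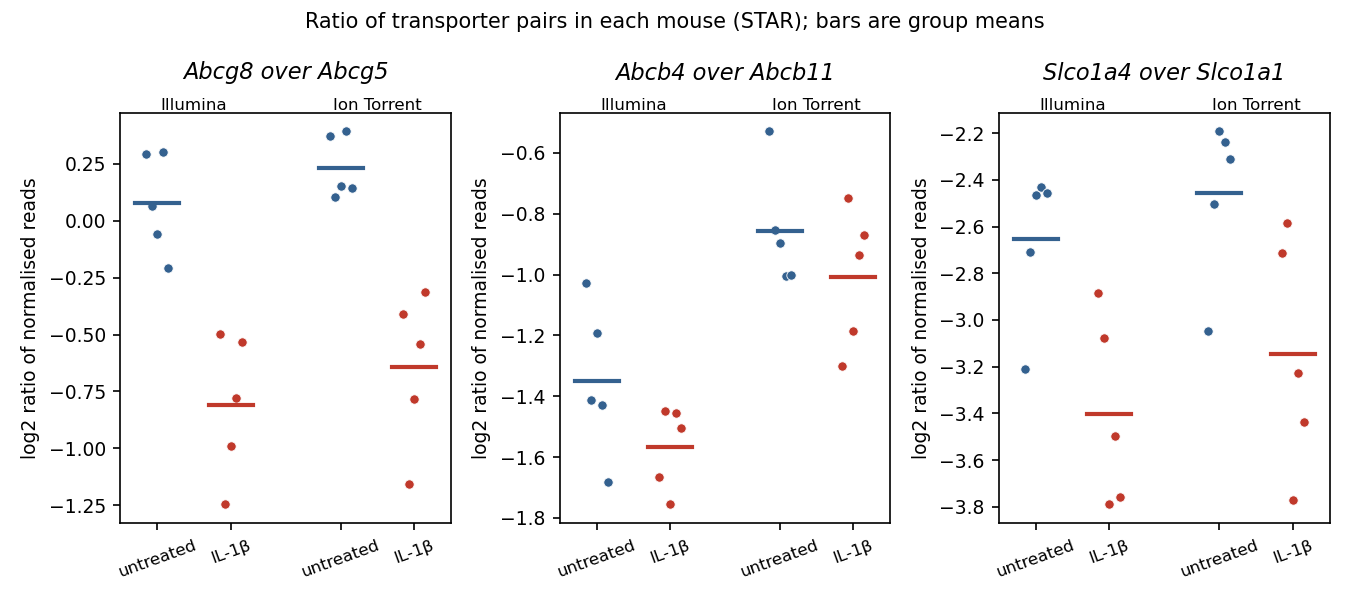
Log2 ratio of normalised reads of 3 transporter pairs in each mouse, for Illumina and Ion Torrent libraries aligned with STAR; points are mice (untreated in blue, IL-1β treated in red), bars are group means and the axes differ between panels. Abcg8 over Abcg5 is the pair whose groups are apart in both platforms, with means of -0.81 and 0.079 in the Illumina libraries.

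The falls were found in each of the 6 tables, which hold the same 10 mice and so repeat the measurement rather than the animals. By edgeR, 10 of 10 transporters were called lower with GSNAP and with STAR + Bowtie2 in the Illumina libraries, where 23.9% and 24.4% of all genes were called lower. In the Ion Torrent libraries 10 of 10 were called lower with STAR, GSNAP and STAR + Bowtie2, against 21.8%, 23.9% and 24% of all genes. By the Mann-Whitney U test, 9 of 10 were called lower in the STAR Illumina table, against 24.3% of all genes. Log2 fold changes over the 6 tables were -1.32 to -1.15 for Slc10a1, -0.84 to -0.67 for Slco1a1, -1.63 to -1.33 for Slco1a4 and -0.97 to -0.72 for Slco1b2. They were -0.62 to -0.53 for Abcb11, -0.80 to -0.68 for Abcb4, -1.31 to -1.29 for Abcc2 and -0.70 to -0.54 for Abcc3. For Abcg5 and Abcg8 they were -0.98 to -0.92 and -1.81 to -1.73.

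**Figure D4:**
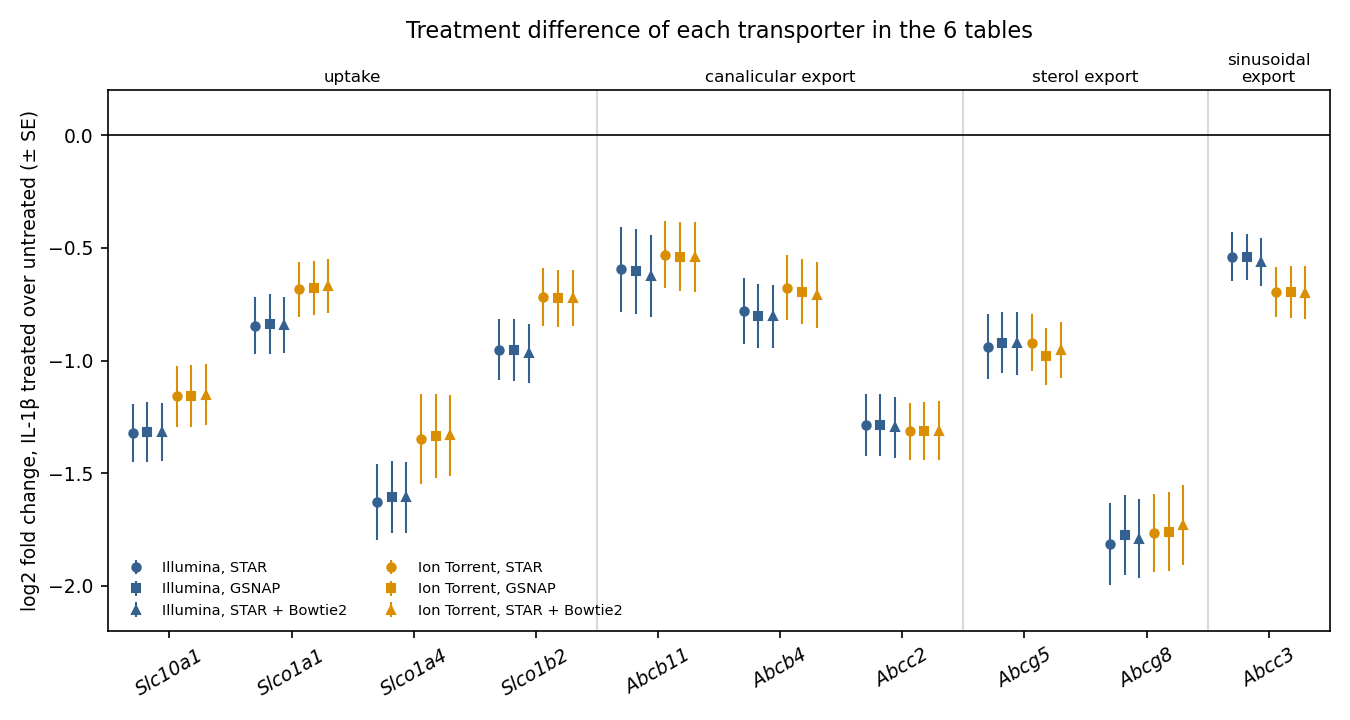
Log2 fold change of IL-1β treated over untreated mice for the 10 transporters in the 6 tables; points are edgeR estimates and error bars their SEs, with blue for Illumina, orange for Ion Torrent and the symbol for the aligner. Every point lies below 0, and in the STAR tables the Ion Torrent points of the 4 uptake genes lie above their Illumina points.

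Whether the fall differed between the platforms was tested with a platform-by-treatment term over the 20 libraries aligned with STAR, with each mouse as a block. The term was called for 0 of the 10 transporters and for 0.00642% of all genes (1 of 15578), and 2 of the 10 had an unadjusted p below 0.05, against 7% of all genes. These were Slco1b2, whose Ion Torrent log2 fold change was 0.23 above that in Illumina (95% interval 0.030 to 0.43, adjusted p = 0.696 from edgeR), and Slc10a1, with 0.17 (95% interval 0.013 to 0.33, adjusted p = 0.696 from edgeR). The fall was smaller in the Ion Torrent libraries for 8 of the 10, and larger for Abcc3 (term -0.14, 95% interval -0.29 to 0.013) and Abcc2 (term -0.016, 95% interval -0.17 to 0.13). For Slco1a4 the term was 0.26 with the widest interval, -0.0064 to 0.52. Without mouse UNT_9584 the terms were smaller for all 4 uptake transporters, at 0.13 for Slco1b2 (95% interval 0.0043 to 0.25), 0.12 for Slc10a1 (-0.0065 to 0.24), 0.092 for Slco1a1, which had 0.18 with this mouse, and 0.16 for Slco1a4. Slco1b2 alone then had an unadjusted p below 0.05 (1 of 10, against 5.99% of all genes), 0 of 10 were called, and the fall was smaller in the Ion Torrent libraries for 7 of the 10, since the term of Abcb11 went from 0.051 to -0.014. The term of Abcg5 went from 0.036 to 0.0044 without UNT_9584. Those of Abcc2 and Abcc3 went from -0.016 to -0.063 and from -0.14 to -0.099. Other mice moved the term as well. Over the fits that left out 1 mouse it was 0.12 to 0.36 for Slco1a4, the lowest without ILB_9578. It was 0.092 to 0.24 for Slco1a1 (0.12 without ILB_9578) and -0.17 to -0.090 for Abcc3.

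The genes around the transporters were read from lists of the bile acid and bilirubin pathway. Of 13 other transporters of the sinusoidal side and nearby membranes, 9 passed the minimum count and had reads in this table. Of these, 6 fell, 2 rose and 1 did not pass, with a median log2 fold change of -0.70 against 0 for all genes tested. Slco1a5 and Slco1a6 passed the minimum through another table but held 0 reads here. They are left out of these counts, while such genes stay among all genes tested. Among all genes, 22.9% fell and 22.7% rose, and the counts of this and the following lists are to be read against these shares. Slc10a5, a relative of Slc10a1, fell from 61.4 ± 8.01 to 22.5 ± 4.56 normalised CPM (log2 fold change -1.45, adjusted p = 1.01e-06 from edgeR). The 2 that rose were Slc10a2 and Abcc1. Slc10a2, the apical sodium-dependent bile acid transporter, which in liver is known from cholangiocytes, had 17.8 ± 5.91 in untreated and 63.1 ± 17.1 in treated mice (log2 fold change 1.83, adjusted p = 6.89e-06 from edgeR). It is also 1 of 7 cholangiocyte markers, of which 6 were tested; 3 rose (Epcam, Sox9 and Slc10a2), 0 fell and Krt19, Krt7 and Spp1 did not pass. Sox9 had 7.42 ± 1.57 normalised CPM in treated and 2.59 ± 0.98 in untreated mice, and Epcam had 1.51 to 3.89 and 0.94 to 2.22, with overlapping groups. The summed level of the 6 markers other than Slc10a2 was 41.9 to 74.0 in treated and 46.0 to 63.3 in untreated mice, most of it from Spp1 (means of 43.0 and 47.8), and none of the 7 was at 0 in all libraries. Abcc1, an exporter of glutathione conjugates, rose from 2.05 ± 0.43 to 5.21 ± 1.04 (log2 fold change 1.34, adjusted p = 6.71e-05 from edgeR).

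Of 8 other canalicular transporters and their partners, 4 fell, 1 rose and 3 did not pass, with a median of -0.75. Atp7b, the copper exporter, fell by 1.45 on the log2 scale (adjusted p = 1.05e-06 from edgeR), and Slc47a1, which exports organic cations, by 1.35 (adjusted p = 2.66e-06 from edgeR). Abcb1b, a multidrug exporter, rose by 1.03 on the log2 scale, from 2.17 ± 1.38 to 4.47 ± 1.15 (adjusted p = 0.0234 from edgeR), with overlapping groups, and did not pass without TMM factors (log2 fold change 0.89, adjusted p = 0.0535 from edgeR). Of 8 genes that anchor or traffic canalicular transporters, 2 fell, 2 rose and 4 did not pass, with a median of -0.089, which is close to the shares over all genes. Ezr (log2 fold change 1.43) and Slc9a3r1 (1.28), which link membrane proteins to actin, rose, and Pdzk1 (-0.88), a scaffold for membrane transporters, fell (adjusted p = 8.39e-07, 1.01e-06 and 8.55e-06 from edgeR).

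Among 15 transcriptional regulators of the transporters, 5 fell, 3 rose and 7 did not pass, with a median of 0.031, again not far from the 22.9% lower and 22.7% higher of all genes. Nr1i3, the receptor CAR, which controls conjugation and transport of bilirubin, had 25.3 ± 6.14 normalised CPM in treated and 463 ± 118 in untreated mice (log2 fold change -4.19, adjusted p = 1.94e-09 from edgeR). Nr3c1, the glucocorticoid receptor, fell by 0.65 on the log2 scale (adjusted p = 0.000231 from edgeR). Hnf4a, a regulator of hepatocyte identity, rose by 1.05 on the log2 scale (adjusted p = 3.94e-07 from edgeR). Vdr, the vitamin D receptor, named here after its values were seen, had 0.57 to 2.76 in treated and 0 to 0.19 in untreated mice, from a mean count of 6.9 (adjusted p = 8.42e-05 from edgeR).

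Of 15 genes of bile acid synthesis and conjugation, 10 fell, 1 rose and 4 did not pass, with a median of -0.53. Cyp7a1, the rate-limiting enzyme of the classical pathway, fell by 4.72 on the log2 scale (SE 0.60, adjusted p = 1.50e-05 from edgeR), from 75.4 to 297 in untreated to 0.39 to 23.0 in treated mice. Cyp8b1, the sterol hydroxylase needed for cholic acid, fell by 2.06 (adjusted p = 4.07e-06 from edgeR) and Akr1d1, the steroid reductase of the pathway, by 1.35 (adjusted p = 2.59e-05 from edgeR). Of 9 genes that form, bind or conjugate bilirubin, 4 fell, 2 rose and 3 did not pass, with a median of -0.60. In the Ion Torrent STAR table, and in the Illumina STAR table without TMM factors, 6 of the 9 fell, since Blvrb and Gstm1 were also called lower. Hmox1, the heme oxygenase that starts bilirubin formation, rose by 1.07 on the log2 scale (adjusted p = 0.00138 from edgeR), while Gsta3 and Gsta2, transferases that also bind bilirubin, fell by 0.82 and 0.75 (adjusted p = 0.000640 and 0.0131 from edgeR).

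**Figure D5:**
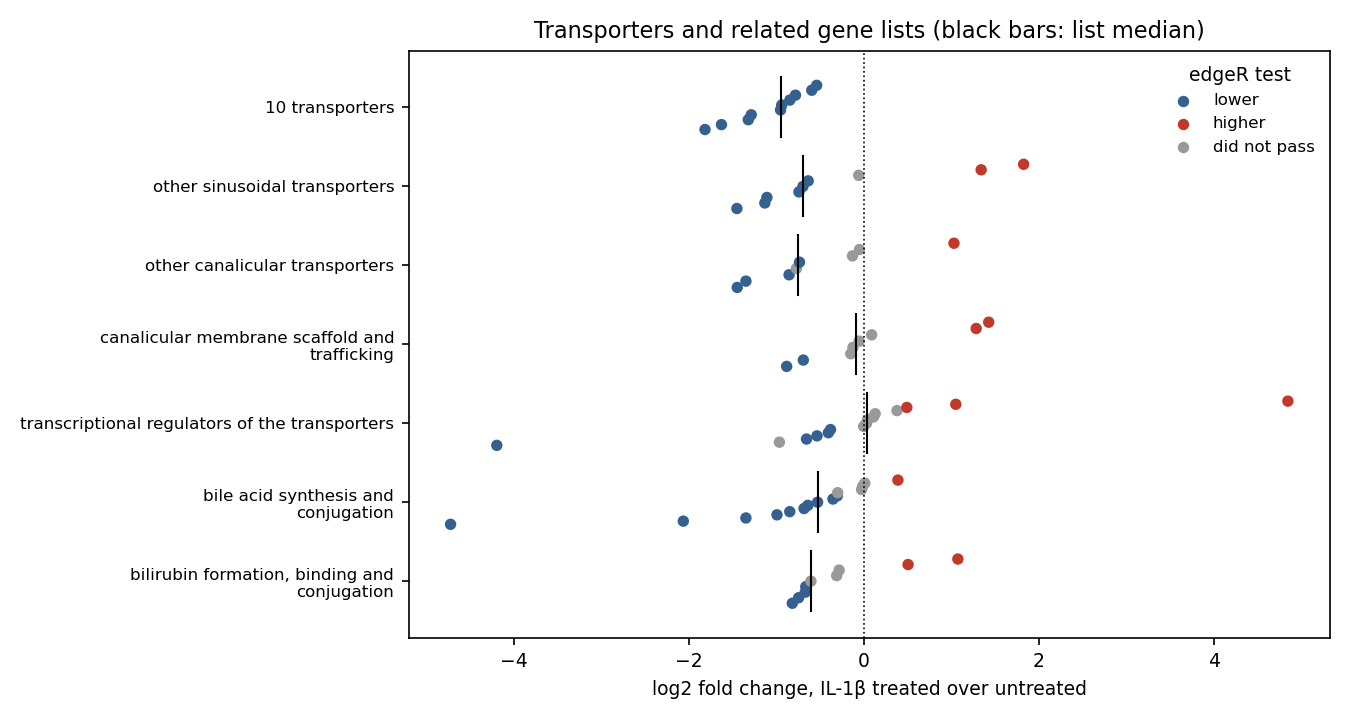
Log2 fold change of IL-1β treated over untreated mice for the 10 transporters and 6 lists of related genes, in Illumina libraries aligned with STAR; each point is a gene with reads in this table, blue where edgeR called it lower, red where higher and grey where it did not pass, and black bars are list medians. The 10 transporters all lie below 0 (median -0.94), and the lists hold points on both sides; the lowest points are Cyp7a1 (-4.72) and Nr1i3 (-4.19) and the highest is Vdr (4.84).

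Among markers of other liver cells, those of neutrophils rose together. Of 4 neutrophil markers tested, 4 rose, and their summed level was 41.6 to 93.9 in treated and 0.71 to 2.91 in untreated mice. The neutrophil markers Ly6g and Mpo, with mean counts of 0.6 and 0.1, were not tested and were at 0 in all untreated mice. Of 6 markers of Kupffer cells and macrophages, 2 fell, 1 rose and 3 did not pass (summed 60.0 to 139 against 105 to 182), and of 5 markers of sinusoidal endothelium 2 fell, 1 rose and 2 did not pass (65.9 to 118 against 105 to 156). Of 5 stellate cell markers 2 fell, 0 rose and 3 did not pass (72.9 to 107 against 106 to 144), and of 3 lymphocyte markers tested 1 fell and 2 did not pass (0.70 to 1.49 against 1.16 to 3.08). The summed ranges of these 4 cell types overlapped between the groups, and over all genes 22.9% fell and 22.7% rose. The part of these cells in the transporter results was not tested.

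The gene whose pattern over the 10 Illumina libraries was most like that of each transporter was taken among the 7810 genes whose mean count reached 100, as the smallest root mean square difference of centred log2 normalised reads. The closest genes were Abhd14b for Slc10a1 (difference 0.105), Gclm for Slco1a1 (0.104), Arhgap29 for Slco1a4 (0.197) and Acbd5 for Slco1b2 (0.096). They were Rgn for Abcb11 (0.15), Mtx3 for Abcb4 (0.124), Aqp9 for Abcc2 (0.101) and Abcb6 for Abcc3 (0.069). For Abcg5 and Abcg8 they were Amt (0.081) and Mettl7a1 (0.116). Within the set, Slco1a1 and Slco1b2 were the nearest to each other (0.121), and Abcg8 was farthest from its nearest fellow transporter (Abcc2, 0.354). Slco1a4 and Abcb11 had the least similar closest genes of the 10.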

How the data were processed

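Liver RNA of 10 mice was sequenced as 20 libraries. The authors deposited whole-number counts for each gene and library in 6 tables, 1 for each platform and aligner (GSNAP, STAR 2.5.1b, and STAR followed by Bowtie2 2.2.9, per the submitters' processing notes). With PORT the authors dropped rRNA and mitochondrial reads, re-sampled the libraries within a table to equal gene-mapping depth and counted reads on Ensembl models of mm9. Tables were thus normalized separately, and treatments were compared within a table. Whether a count is a read or a read pair, and whether counting used the strand, is not given in the sources used here. All 60 count columns were used.

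Genes that reached 5 reads in at least 5 libraries of any table were tested by the quasi-likelihood method of edgeR with TMM factors, in each table over 5 treated and 5 untreated mice, and p-values were adjusted by Benjamini-Hochberg over the 15578 genes and called below 0.05. Normalised CPM were computed from the counts and TMM library sizes. The platform-by-treatment term was fitted with the mouse as a block, because both libraries of a mouse come from the same RNA. Their deviations from the group correlated at 0.199 to 0.721. Ratios within a mouse were compared by two-sided exact permutation tests over mice. Replicate libraries of a group differed by more than sampling noise in every pair.

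The 10 transporters and the gene lists were chosen with earlier results of these data known. All 10 are named; from each pathway list up to 3 called genes with the largest change and a mean count of at least 20 are named, and for each transporter the gene of most similar pattern. Exceptions are stated where they occur. Alternatives were the other tables, other size factors, filters and tests (DESeq2, limma-voom, Mann-Whitney U), a fold threshold, other lengths, no block, and leaving out each mouse. The Mann-Whitney U test in the other 5 tables and leaving out mice in the Ion Torrent STAR table were added after seeing the data. The tests were tested on simulated data for the comparison of treatments in the STAR Illumina table, where 15578 genes held 100 changed by 1.5 and 100 by 0.75 on the log2 scale. Of these, edgeR called 97 and 49, with 4 unchanged genes. For the platform-by-treatment term the numbers were 99 and 51, with 6 unchanged genes. In both simulations the changed genes had a mean count of at least 20, and all genes had the same dispersion. Changes below 0.75 were not simulated. The platform-by-treatment terms of the 10 transporters were smaller than that, so these numbers do not give the power for them. Positions, exons and coding sequences are from the GENCODE annotation of NCBIM37 (mm9), upstream sequences from RefSeq (GRCm38.p6), placed on NCBIM37 by exact match, and paralogs were compared with BLAST+ 2.17.0. Tests were run with DESeq2 1.42.0, limma 3.58.1 and edgeR 4.0.16 under R 4.3.3, and other steps under Python 3.11.15 with matplotlib 3.10.9, pandas 2.3.3, scipy 1.17.1 and numpy 2.4.6.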

Additional observations from a re-analysis of the deposited data

Results flagged for a closer look

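In the treated group, Abcg8 in mouse ILB_9578 lay far below the other 4 mice on both platforms. It had 15.1 normalised CPM in the Illumina STAR table, where the others had 28.3 to 32.2, and 20.3 in the Ion Torrent STAR table, where the others had 41.8 to 45.7. The gap to the nearest mouse was 0.77 and 0.85 of the range of the group, above the 95% critical value of 0.71 in Dixon's test for 5 samples. Over the 10 transporters, both treatments and both STAR tables, 40 groups were checked and 2 were flagged, and chance flags about 1 in 20, or 2 groups. Both libraries come from the same liver RNA. Without this mouse, the log2 fold change of Abcg8 in the Illumina STAR table was -1.66 (adjusted p = 2.14e-07 from edgeR), against -1.81 with it.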

How the results depend on the processing

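Each transporter's fall was refitted under 22 settings in the Illumina STAR table or the other tables, and 219 of 220 results kept their call and direction, with 0 reversed. The exception was Abcb11 under the Mann-Whitney U test (adjusted p = 0.0722), which also takes no TMM factors. All 10 transporters were called in each fit that left out 1 mouse. Leaving out 1 mouse moved Abcb11 between -0.71 and -0.40 (adjusted p 0.00378 to 0.0438 from edgeR), the latter without untreated mouse UNT_9584, and with limma-voom its adjusted p was 0.0488. Requiring an absolute log2 fold change above 1 left 4 of the 10. Without TMM factors the median log2 fold change of all genes was -0.099 in this table and -0.15 with the Mann-Whitney U test, and 0 of the other canalicular transporters were called higher, since Abcb1b was lost; the cause was not tested. With no replicate block for the mouse, the platform-by-treatment term was called for 0 of the 10 transporters, as with the pairing. That term was small for 3 genes and changed sign: for Abcg5 it was 0.036 with STAR, -0.064 with GSNAP and -0.034 with STAR + Bowtie2, and over the fits that left out 1 mouse it was -0.014 to 0.13 for Abcb11 and -0.063 to 0.047 for Abcc2 (above 0 without UNT_9574, UNT_9575, UNT_9576, ILB_9579 or UNT_9580, at 0.047, 0.029, 0.015, 0.017 and 0.0032); none of these was called, and the cause was not tested. Leaving out 1 mouse moved the Abcb4 over Abcb11 difference between -0.30 and -0.14, and of these it passed without untreated mouse UNT_9584 alone (adjusted exact permutation p = 0.0119). Slco1a4 over Slco1a1 lay between -0.89 and -0.65 and passed in 4 of these 10 cases (adjusted exact permutation p 0.0238 to 0.0714), and in the Ion Torrent STAR table it was -0.69 and did not pass (adjusted exact permutation p = 0.0595); the cause was not tested. Abcg8 over Abcg5 passed in 10 of 10 (adjusted exact permutation p 0.0119 to 0.0238). The design gives 1 time point, 1 dose and 5 mice per group, and transcript levels alone.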

Other observations

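Some genes of the related lists fall outside the rule for naming and were chosen after their values were seen. Ugt1a1, the enzyme that conjugates bilirubin before Abcc2 exports it, had 165 ± 9.65 normalised CPM in treated and 261 ± 19.9 in untreated mice (SD, n = 5), with no overlap between the groups, and fell by 0.66 on the log2 scale (adjusted p = 2.24e-05 from edgeR). Fabp1, a cytosolic carrier of fatty acids that also binds bilirubin, fell by 0.67 (adjusted p = 0.00245 from edgeR). Nr1h4, the bile acid receptor, fell by 0.38 (adjusted p = 0.0252 from edgeR) and its groups overlapped, at 110.0 to 151 in treated and 123 to 203 in untreated mice. Its target Nr0b2 had 7.28 ± 3.31 and 14.2 ± 8.60 and did not pass in the Illumina STAR table (adjusted p = 0.0719 from edgeR), while it was called lower there without TMM factors (adjusted p = 0.0477 from edgeR) and in the Ion Torrent STAR table (adjusted p = 0.0244 from edgeR). Baat, which joins bile acids to taurine or glycine, rose by 0.39 (adjusted p = 0.00949 from edgeR) and was the single gene of the synthesis list to rise. Cyp27a1, which starts the alternative pathway of bile acid synthesis, had 508 ± 54.7 and 504 ± 35.2 and did not pass (adjusted p = 0.976 from edgeR).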
